A study of Mus musculus with 28 samples.

Results

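The genes described are 10 secreted cytokine and chemokine genes that fibroblasts are known to express, chosen by symbol: Il6, Il11, Lif, Gdf15, Cxcl1, Cxcl5, Cxcl12, Ccl2, Ccl7 and Csf1. They are 10 of the 54109 gene identifiers of the reprogramming table and of the 54838 of the iPSC (induced pluripotent stem cell) table, and each was found once in both. All 10 are annotated as protein coding, and the values count reads over whole genes.

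RNA of mouse embryonic fibroblasts (MEF) in reprogramming was sequenced in 12 libraries, in 4 groups of 3. One group had doxycycline (DOX) alone at 1 µg/ml, which switches on the reprogramming factors. DOX_UNC also had UNC0638 (UNC) at 1 µM, an inhibitor of the H3K9 methyltransferases G9a and GLP. DOX_3C had DOX with 3C, a mix of 3 µM of the GSK3 inhibitor CHIR99021, 250 nM of the receptor inhibitor TGF-b RI Kinase Inhibitor II and 50 µg/ml of L-ascorbic acid. DOX_3C_UNC had DOX, 3C and UNC together. The study asked whether the effect of H3K9 methyltransferase activity on reprogramming depends on these conditions. The other 6 libraries came from iPSC made from such MEF, 3 with DMSO and 3 with 1 µM UNC for the first 48 hours. For the iPSC the treatment text also puts the harvest at 48 hours of reprogramming, and the time at which the RNA of the 12 reprogramming libraries was collected is not given in the labels. All cells, controls included, carried 1 copy each of Rosa26-rtTA and Oct4-GFP, with either 1 copy of an inducible OKSM allele or 2 copies of an inducible OKS allele. Which libraries carried which allele is not stated. The cells grew on irradiated feeder cells, and the share of feeder RNA in each library was not measured. Nothing in the labels says that replicates were separate cultures or embryos, so p-values measure the spread between these samples, which may be technical. A further 10 samples that profiled H3K9me2 were not analysed here.

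Cytokines and chemokines are small secreted proteins that act on receptors of the same or neighbouring cells. IL-6, IL-11 and LIF signal through the shared receptor subunit gp130 to JAK kinases and STAT3, and LIF is used in culture to keep mouse pluripotent stem cells undifferentiated. CXC and CC chemokines guide white blood cells and stem cells, GDF15 is a stress-induced member of the TGF-beta superfamily, and CSF1 is the growth factor of macrophages. Fibroblasts make many of them, and IL-6 is a known part of the secretion of senescent cells.

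Libraries held 10616764 to 20211641 reads in genes for reprogramming and 21592023 to 25408585 for iPSC. Values are normalised counts (reads divided by 1 factor per library) for reprogramming and CPM (reads of a gene per 1000000 reads) for iPSC. A gene was called at a Benjamini-Hochberg adjusted p below 0.05 over all genes tested. The labelled cell types were checked against markers. In reprogramming, the fibroblast gene Col1a2 stood at 82491 ± 5978 normalised counts in DOX (SD, n = 3), while Nanog stood at 5.17 ± 2.45 and Dppa5a had no read in any of the 12 libraries. In iPSC, all 8 pluripotency markers were detected, with Nanog at 473 ± 12.5 CPM after DMSO and 454 ± 25.2 after UNC. Markers of macrophages and other blood cells were present in reprogramming. Of 15, Laptm5 was highest without 3C, at group means of 673 (DOX) and 569 (DOX_UNC) normalised counts. With 3C it was at 38.3 (DOX_3C) and 38.9 (DOX_3C_UNC), below Lyz2 and Cd68. Over the 4 groups Lyz2 was at 95.8 to 162 and Cd68 at 54.7 to 89.5. The other 12 were at 0.388 to 53.5, with Csf1r, the receptor of CSF1, at 16.3 to 30.2.

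Promoter sequences are shown for 4 members. Il6 and Gdf15 had the largest changes with 3C, Csf1 was called in 3 reprogramming comparisons and in iPSC, and Cxcl1, which was not called, serves for contrast. RefSeq entries for GRCm38.p6 were found for 7 of the 10 members, and Cxcl5, Ccl2 and Ccl7 had none in the table used. Each run is the 250 bases before the start site, 5′ to 3′ on the strand of the gene: chr5:30012864-30013113 (plus strand) for Il6, chr8:70632457-70632706 (minus) for Gdf15, chr5:90890995-90891244 (plus) for Cxcl1 and chr3:107760470-107760719 (minus) for Csf1. Capitals mark matches, on either strand, to the NF-kB consensus or to the AP-1 motif TGANTCA.
Il6: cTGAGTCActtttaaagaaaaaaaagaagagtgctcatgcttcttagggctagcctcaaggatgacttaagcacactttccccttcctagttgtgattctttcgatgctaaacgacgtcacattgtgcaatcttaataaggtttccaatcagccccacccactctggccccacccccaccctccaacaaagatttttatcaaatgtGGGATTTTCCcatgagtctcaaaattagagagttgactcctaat
Gdf15: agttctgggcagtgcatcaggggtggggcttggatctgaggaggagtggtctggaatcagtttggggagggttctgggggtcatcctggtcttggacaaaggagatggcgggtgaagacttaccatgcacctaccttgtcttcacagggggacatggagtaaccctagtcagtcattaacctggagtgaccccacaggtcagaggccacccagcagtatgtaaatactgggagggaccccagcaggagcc
Cxcl1: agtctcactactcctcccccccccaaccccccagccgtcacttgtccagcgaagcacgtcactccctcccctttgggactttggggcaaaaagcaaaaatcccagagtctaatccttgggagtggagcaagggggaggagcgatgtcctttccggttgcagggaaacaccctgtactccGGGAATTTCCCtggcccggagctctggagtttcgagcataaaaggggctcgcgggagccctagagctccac
Csf1: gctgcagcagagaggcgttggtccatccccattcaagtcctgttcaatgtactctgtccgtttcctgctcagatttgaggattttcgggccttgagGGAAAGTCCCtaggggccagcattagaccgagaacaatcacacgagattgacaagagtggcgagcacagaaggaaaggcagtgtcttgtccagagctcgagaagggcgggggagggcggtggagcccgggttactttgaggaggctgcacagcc
Il6 held an NF-kB match at -44 to -35 from the start site and an AP-1 match at -249 to -243. Cxcl1 held 2 overlapping NF-kB matches, at -71 to -62 and -70 to -61, and Csf1 held 1 at -154 to -145. Gdf15 held none of the 5 motifs searched. Of 32851 RefSeq promoters of the same length, 3.9% held the NF-kB consensus and 6.75% held TGANTCA. The other motifs were TGATGNAA (bound by C/EBP-ATF pairs, in 3.45% of promoters), CTTTGAT (TCF/LEF, 3.21%) and TTCNNNGAA (STAT, 7.02%). Among the members not printed, Lif and 1 of the 2 Il11 entries held an AP-1 match, and Cxcl12 held the TCF/LEF motif. Of the 3 members with an NF-kB match, Il6 and Csf1 rose with 3C and Cxcl1 was not called. The motifs were chosen after the values were seen, and a match is a description of letters, not of binding.

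The 3C mix went with the largest changes. With 3C, without and with UNC, Il6 and Gdf15 rose several-fold, Cxcl5 rose by more than 1 log2 unit and Csf1 rose less. Lif rose and Ccl2 fell with 3C in the absence of UNC, and neither was called for 3C in its presence. Adding UNC to 3C raised Cxcl5, Ccl2 and Csf1. Adding UNC to DOX alone raised Cxcl5. These calls are from limma without a block for the replicate number. With that block, Cxcl12 was also called in all 4 comparisons, lower with 3C and higher with UNC. Ccl7 was then called higher for UNC with 3C and for 3C with UNC, and Lif higher for 3C with UNC. Gdf15 was called lower for UNC on DOX alone with the block in limma, not in edgeR. Of the 10 members, 9 passed the expression filter in reprogramming. Il11 did not pass, and Il6 passed through the 3C libraries alone, so its place among the tested genes is no support for its difference. The 4 comparisons share groups with each other and are not independent of one another.

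With 3C in the absence of UNC, 5 members were called higher and 1 lower (limma), where 49.4% of all 16138 genes tested were called, 24.7% higher and 24.7% lower. With 3C in the presence of UNC, 4 members were called higher and 0 lower, against 47.4% of all genes, 23.9% higher and 23.5% lower. The members' median log2 fold change was 0.24 and 0.37 in these comparisons, against 0.02 and 0.01 for all genes. With UNC on top of 3C, 3 members were called higher and 0 lower, where 11.6% of all genes were called, 7.71% higher and 3.94% lower, and the median was 0.39 against -0.00. With UNC on DOX alone 1 member was called higher and 0 lower, where 0.607% of genes were called, 0.508% higher and 0.0991% lower, and the median was 0.04 against 0.00. The members' counts with 3C are near the share of all genes called. With the replicate number as a block (libraries of the same number deviated together), 5 members were called for UNC with 3C, where 2871 genes were, and 7 for 3C with UNC, where 8307 genes were. For UNC on DOX alone the block gave 3 members, Cxcl5, Cxcl12 and Gdf15, where 409 genes were called, and in edgeR it gave 2, without Gdf15.

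**Figure D1:**
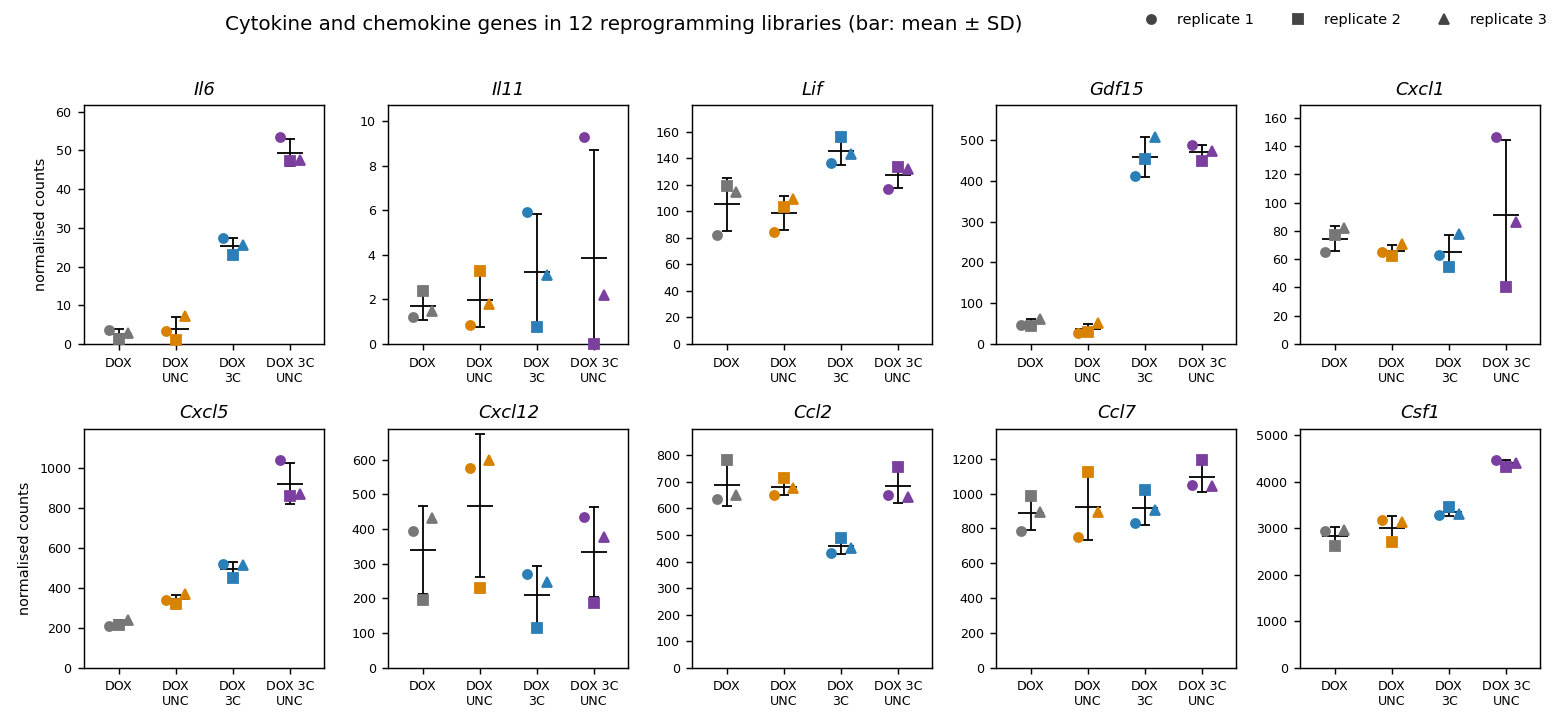
Normalised counts (linear vertical axes, 1 panel per gene) in the 4 reprogramming groups, with the 3 replicates of a group as circle, square and triangle and the mean ± SD as bars. Il6 and Gdf15 separate the groups with 3C from those without, Cxcl5 rises over the 4 groups, Ccl2 is low in DOX_3C, and the squares of Cxcl12 are low in every group.

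**Figure D2:**
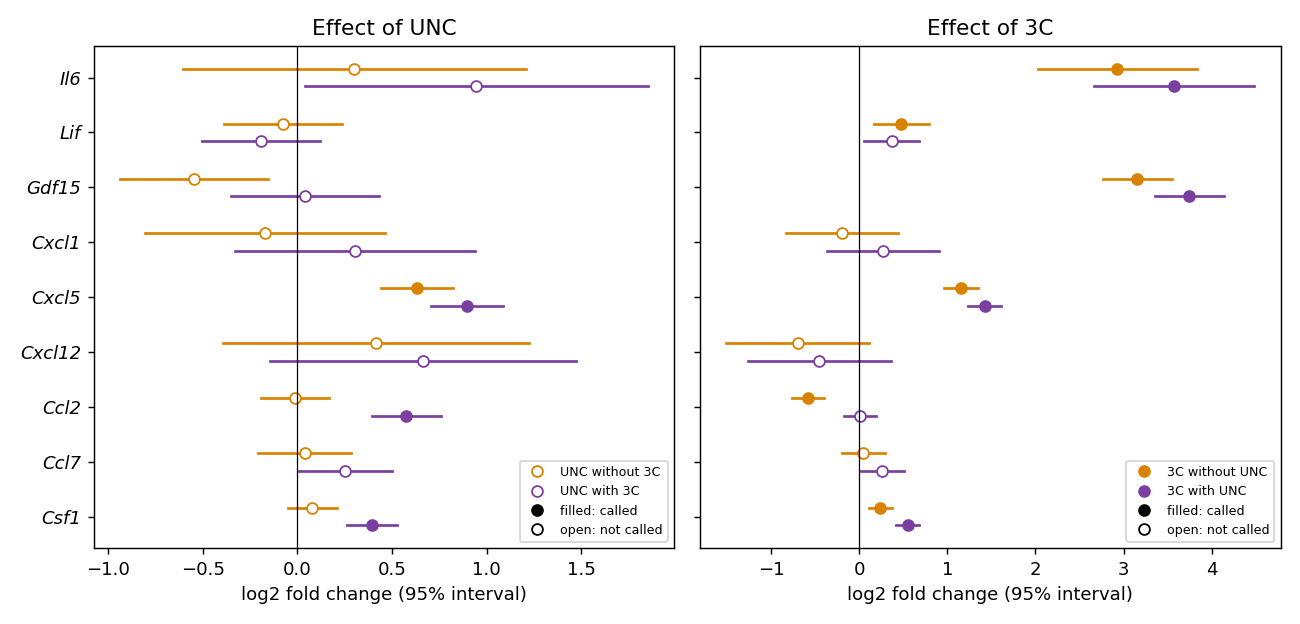
Log2 fold changes of the 9 tested members with 95% intervals (limma), for UNC at left and for 3C at right; filled points were called. The intervals of Il6 and Cxcl12 are the widest, and the Ccl2 effect of 3C is at -0.58 without UNC and 0.00 with it.

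Il6 (ENSMUSG00000025746, mm10 chromosome 5, 30013114 to 30019975) encodes interleukin-6, a ligand of gp130. Its normalised counts in replicates 1, 2 and 3 were 3.68, 1.20 and 2.93 in DOX and 3.42, 1.10 and 7.14 in DOX_UNC. They were 27.3, 23.0 and 25.5 in DOX_3C and 53.6, 47.3 and 47.5 in DOX_3C_UNC. Every library with 3C was above every library without it, and every DOX_3C_UNC library was above every DOX_3C library. Il6 rose with 3C by 2.93 ± 0.43 on the log2(value + 1) scale without UNC (SE, limma adjusted p = 1.85e-05) and by 3.58 ± 0.43 with UNC (adjusted p = 1.97e-06). The groups without 3C held 6 and 13 reads of Il6 in all. From the reads, the ratio of DOX_3C to DOX was 9.69 (exact 95% interval 4.28 to 27.1) and that of DOX_3C_UNC to DOX_UNC was 12.2 (6.88 to 23.5), where the intervals cover counting error alone. The reads without 3C were too few to narrow these ratios further. UNC with 3C gave a log2 difference of 0.94 ± 0.43, which limma did not call (adjusted p = 0.176), while edgeR on the recovered reads called it (0.98, adjusted p = 0.0169), as did DESeq2 (adjusted p = 0.0465). The read ratio of DOX_3C_UNC to DOX_3C was 1.98 (1.50 to 2.63). UNC without 3C gave 0.30 ± 0.43 (adjusted p = 0.90), with overlapping groups.

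Il11 (ENSMUSG00000004371, mm10 chromosome 7, 4772373 to 4782907), another gp130 ligand, was near the limit of detection. Its libraries held 0 to 8 reads, and the group totals were 4 in DOX, 6 in DOX_UNC, 10 in DOX_3C and 10 in DOX_3C_UNC. At this depth no difference between groups was detectable, and Il11 was not tested.

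Lif (ENSMUSG00000034394, mm10 chromosome 11, 4257568 to 4272514) encodes leukemia inhibitory factor. In replicate order its normalised counts were 82.2, 119 and 114 in DOX, 84.5, 103 and 109 in DOX_UNC, 136, 156 and 143 in DOX_3C and 116, 133 and 131 in DOX_3C_UNC. All 3 DOX_3C libraries were above all 3 DOX libraries, and the 3 DOX_3C_UNC libraries were above the 3 DOX_UNC libraries. Lif rose with 3C without UNC by 0.48 ± 0.15 (limma adjusted p = 0.012), a call lost without DOX replicate 1 (0.31, adjusted p = 0.0845) or DOX_3C replicate 2 (adjusted p = 0.0504). With UNC present the 3C difference was 0.37 ± 0.15 and was not called (adjusted p = 0.0506), and it was called with the replicate number as a block (adjusted p = 0.0159), with edgeR on the recovered reads (adjusted p = 0.05, just under the threshold) and without any 1 of 4 libraries: DOX replicate 1 or 2, DOX_UNC replicate 3 or DOX_3C_UNC replicate 1 (adjusted p = 0.0255 to 0.0472). Lif was called for UNC in neither setting: the differences were -0.19 ± 0.15 with 3C (adjusted p = 0.45) and -0.08 ± 0.15 without (adjusted p = 0.931).

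Gdf15 (ENSMUSG00000038508, mm10 chromosome 8, 70629393 to 70632470), the stress-induced cytokine that acts on the brain receptor GFRAL, had, with Il6, the largest changes of the members. Replicates 1, 2 and 3 had 46.6, 44.4 and 61.5 normalised counts in DOX and 27.3, 28.5 and 50.9 in DOX_UNC. With 3C they had 412, 453 and 509, and with 3C and UNC 487, 449.7 and 473. The lowest library with 3C was thus far above the highest library without it. Gdf15 rose with 3C by 3.16 ± 0.19 without UNC (limma adjusted p = 1.95e-10) and by 3.74 ± 0.19 with UNC (adjusted p = 2.25e-11). UNC on DOX alone gave -0.55 ± 0.19, not called (adjusted p = 0.28). There DOX_UNC replicate 3, at 50.9, lay within the DOX group while the other 2 lay below it, and without that library the difference was -0.83 and was called (adjusted p = 0.035). With the replicate number as a block it was called in limma (adjusted p = 0.0369) but not in edgeR (-0.50, adjusted p = 0.288). UNC with 3C gave 0.04 ± 0.19 (95% interval -0.35 to 0.43, adjusted p = 0.917). A list of stress-response genes held 12 genes, of which 11 were tested, and Ddit3, whose symbol had several identifiers, was left out. The list mixes regulators with targets of p53 or ATF4, such as Sesn2 and Cdkn1a. Its counts are thus not those of regulators upstream of Gdf15 alone. With 3C, 4 of the 11 rose and 3 fell without UNC, and 3 rose and 6 fell with UNC, where 49.4% and 47.4% of all genes were called. Their median was -0.18 and -0.26, against 0.02 and 0.01 for all genes. Sesn2, a p53 and ATF4 target, rose from 2157 ± 181 to 3163 ± 149 (0.55 ± 0.06, adjusted p = 1.12e-06), while Egr1, an immediate early transcription factor, fell from 769.9 ± 94.2 to 275 ± 46.5 (-1.49 ± 0.16, adjusted p = 6.81e-07). Trp53, which encodes p53, fell by 0.43 ± 0.06 without UNC and by 0.40 ± 0.06 with it, and its target Cdkn1a rose with 3C in the presence of UNC by 0.53 ± 0.09 (adjusted p = 5.46e-05). UNC gave 0 calls in this list in either setting with limma, with 1 of 11 (without 3C) and 3 of 11 (with 3C) at an unadjusted p below 0.05, and 0 calls with edgeR or DESeq2 on the recovered reads. The count with UNC on 3C was 1 without DOX_UNC replicate 1 or 2 or DOX_3C replicate 1, 2 without DOX_3C_UNC replicate 2 and 3 with the replicate number as a block, and that without 3C was 1 without DOX_UNC replicate 1 and 1 with the block.

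Cxcl1 (ENSMUSG00000029380, mm10 chromosome 5, 90891245 to 90893121) and Cxcl5 (ENSMUSG00000029371, chromosome 5, 90759298 to 90761625) encode neutrophil attractants that act on CXCR2, and lie near each other in the CXC cluster. Cxcl1 had 65.0, 76.9 and 82.0 normalised counts in DOX, 64.9, 62.5 and 70.5 in DOX_UNC, 62.9, 54.8 and 78.0 in DOX_3C and 147, 40.0 and 86.2 in DOX_3C_UNC. The DOX_3C_UNC group held both the highest and the lowest of the 12 libraries. No comparison of Cxcl1 was called (limma adjusted p of 0.487 to 0.923 in the 4 comparisons). Without DOX_3C_UNC replicate 2, the library at 40.0, the difference of UNC with 3C was 0.79 (adjusted p = 0.0242) and that of 3C with UNC was 0.76 (adjusted p = 0.00838).

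Cxcl5 was the one member called in every one of the 4 comparisons. It had 208, 215 and 239 normalised counts in DOX, 338, 321 and 367 in DOX_UNC, 517, 449.5 and 513 in DOX_3C and 1037, 858 and 868 in DOX_3C_UNC. The 4 groups followed each other without overlap, so that the lowest library of each was above the highest of the one before. UNC raised Cxcl5 by 0.63 ± 0.09 without 3C (adjusted p = 0.00347), the ninth smallest p of all genes tested in that comparison, and by 0.90 ± 0.09 with 3C (adjusted p = 5.16e-06). The rise with 3C was 1.16 ± 0.09 without UNC (adjusted p = 8.04e-09) and 1.42 ± 0.09 with it (adjusted p = 5.67e-10). These 4 calls held when any 1 library was left out.

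Cxcl12 (ENSMUSG00000061353, mm10 chromosome 6, 117168535 to 117181368) encodes SDF-1, the ligand of CXCR4 and ACKR3 that holds blood stem cells in the marrow. Its normalised counts were 394, 196 and 430.5 in DOX, 575, 229 and 598 in DOX_UNC, 269, 116 and 246 in DOX_3C and 436, 187 and 376 in DOX_3C_UNC. Replicate 2 was low in every group, at 39.1 to 47.5% of the mean of the other 2 libraries. Among the other tested members the same share was 85.9 to 104.8% for Csf1, 87.3 to 96.2% for Cxcl5, 72.9 to 98.5% for Gdf15, 107 to 121% for Lif, 108 to 121% for Ccl2 and 114 to 137% for Ccl7. It ranged more widely for Cxcl1 (34.3 to 104.6%) and for Il6 (20.8 to 93.5%), whose levels were low without 3C. Replicate 2 thus also lay on 1 side of the mean of the other 2 libraries in every group for Cxcl5, Gdf15, Il6, Lif, Ccl2 and Ccl7. It was not always the lowest or highest library: Lif in DOX_UNC, for example, had 84.5, 103 and 109 in replicate order. No limma comparison called Cxcl12: the difference was 0.41 ± 0.38 for UNC without 3C (adjusted p = 0.827), 0.66 ± 0.38 for UNC with 3C (adjusted p = 0.295), -0.70 ± 0.38 for 3C without UNC (adjusted p = 0.142) and -0.45 ± 0.38 for 3C with UNC (adjusted p = 0.355). Between libraries of the same number, Cxcl12 was higher with UNC in 3 of 3 pairs, without and with 3C, and lower with 3C in 3 of 3 pairs, without and with UNC. The pairs of each comparison thus moved the same way, while the groups overlapped. With the replicate number as a block the SE was 0.09, and Cxcl12 was called for UNC without 3C (adjusted p = 0.0112), UNC with 3C (adjusted p = 1.51e-05), 3C without UNC (adjusted p = 7.42e-07) and 3C with UNC (adjusted p = 0.000181). With replicate 2 left out of every group, an alternative chosen after these values were seen, the differences were 0.51 for UNC without 3C (adjusted p = 0.0697), 0.65 for UNC with 3C (adjusted p = 0.002), -0.67 for 3C without UNC (adjusted p = 0.000127) and -0.53 for 3C with UNC (adjusted p = 0.000932). Without DOX replicate 2 alone, 3C without UNC gave -1.06 (adjusted p = 0.0382). What set replicate 2 apart was not tested.

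**Figure D3:**
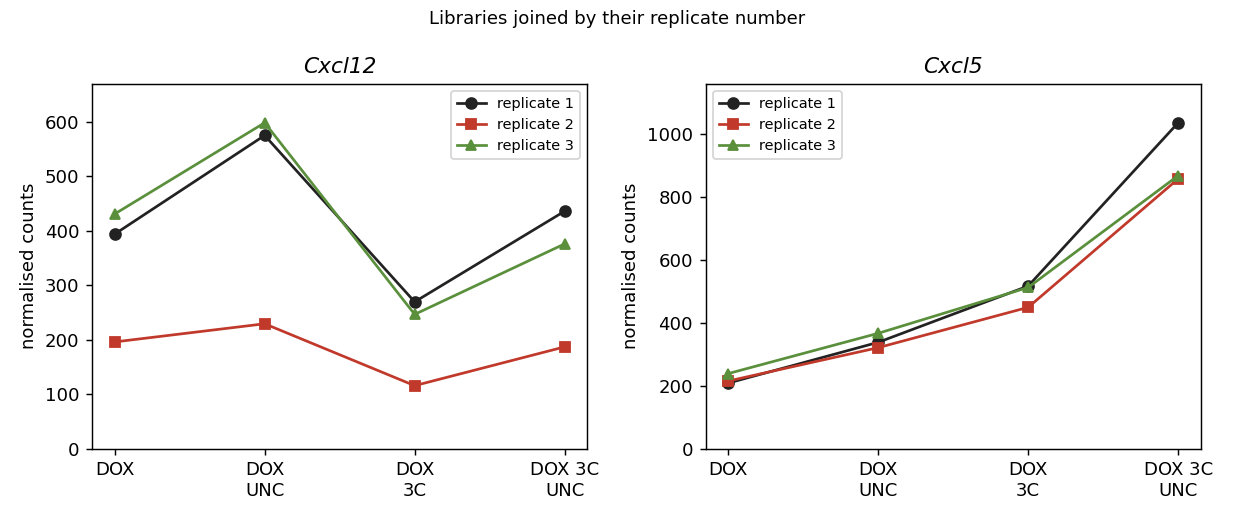
Normalised counts of Cxcl12 (left) and Cxcl5 (right) in the 4 reprogramming groups, with libraries of the same replicate number joined by a line. For Cxcl12 the 3 lines all rise with UNC and all fall with 3C, by unequal amounts. Replicate 2 lies lowest throughout, at 116 to 229, and the lines of the other replicates cross. For Cxcl5 the 3 lines lie close together.

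Ccl2 (ENSMUSG00000035385, mm10 chromosome 11, 82035577 to 82037452) and Ccl7 (ENSMUSG00000035373, chromosome 11, 82045712 to 82047525) encode the monocyte attractants MCP-1 and MCP-3, ligands of CCR2, and are neighbours. Ccl2 had 635, 781 and 650.1 normalised counts in DOX, 651, 714 and 677 in DOX_UNC, 433, 490.2 and 452 in DOX_3C and 651, 758 and 643 in DOX_3C_UNC. The DOX_3C libraries were below all others, and the other 3 groups overlapped. Without UNC, 3C lowered Ccl2 by 0.58 ± 0.09 on the log2 scale (difference -0.58, limma adjusted p = 2.01e-05). With UNC present the 3C difference was 0.00 ± 0.09 (95% interval -0.18 to 0.19, adjusted p = 0.97). UNC raised Ccl2 with 3C by 0.57 ± 0.09 (adjusted p = 0.000307), and without 3C the difference was -0.01 ± 0.09 (95% interval -0.19 to 0.17, adjusted p = 0.987). The difference between the UNC effects with and without 3C was 0.59 ± 0.12 (adjusted p = 0.0652), which missed the threshold. The Ccl2 calls for 3C without UNC and for UNC with 3C held when any 1 library was left out.

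Ccl7 had 787, 988 and 895 normalised counts in DOX, 749, 1127 and 892 in DOX_UNC, 829, 1020.5 and 906 in DOX_3C and 1047, 1190.4 and 1042 in DOX_3C_UNC. Unlike Ccl2 it was not low in DOX_3C, and the DOX_3C_UNC libraries were above all DOX_3C libraries. Neither UNC with 3C (0.25 ± 0.12, limma adjusted p = 0.184) nor 3C with UNC (0.26 ± 0.12, adjusted p = 0.0765) was called. With the replicate number as a block both were called, with adjusted p = 0.0089 and 0.00183. Without DOX_UNC replicate 2, the library at 1127, 3C with UNC gave 0.42 (adjusted p = 0.00393). The other differences were 0.04 ± 0.12 for UNC without 3C (adjusted p = 0.959) and 0.05 ± 0.12 for 3C without UNC (adjusted p = 0.771).

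Csf1 (ENSMUSG00000014599, mm10 chromosome 3, 107741048 to 107760469) encodes macrophage colony-stimulating factor, the ligand of CSF1R. Its normalised counts were 2935, 2626 and 2962 in DOX, 3172, 2708 and 3135 in DOX_UNC, 3275, 3449.5 and 3308 in DOX_3C and 4457, 4320.3 and 4407 in DOX_3C_UNC. The 3 DOX_3C_UNC libraries were the highest and the 3 DOX_3C libraries came next, while DOX and DOX_UNC overlapped. UNC raised Csf1 with 3C by 0.39 ± 0.06 (limma adjusted p = 0.000479), and without 3C the difference was 0.08 ± 0.06 (95% interval -0.05 to 0.21, adjusted p = 0.772). Csf1 rose with 3C by 0.24 ± 0.06 without UNC (adjusted p = 0.00402) and by 0.55 ± 0.06 with UNC (adjusted p = 8.65e-07). These 3 calls held when any 1 library was left out.

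Whether UNC acted differently with 3C than without was tested as an interaction. With limma 0 of the 9 tested members were called, where 0.062% of all genes (10 genes) were, and 3 members had an unadjusted p below 0.05: Ccl2, Csf1 (0.31 ± 0.09, adjusted p = 0.159) and Gdf15 (0.59 ± 0.26, adjusted p = 0.414). edgeR on the recovered reads called 0 members and DESeq2 called 2, Ccl2 (adjusted p = 0.00313) and Csf1 (adjusted p = 0.0487). For Cxcl5 the interaction was 0.27 ± 0.13 (95% interval -0.00 to 0.54, adjusted p = 0.453). With the replicate number as a block, 2 interactions were called, Ccl2 (0.59 ± 0.09, limma adjusted p = 0.000721, edgeR adjusted p = 0.000462) and Csf1 (0.31 ± 0.08, limma adjusted p = 0.0264, edgeR adjusted p = 0.0225), where 413 genes were called by limma. The larger UNC effect on Ccl2 and Csf1 with 3C thus passed the threshold with the block and with DESeq2, and not in limma or edgeR without the block.

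Counting libraries, UNC with 3C left 5 members with all treated libraries above all controls and 1, Lif, with all below, where 16.1% and 12.7% of all genes did so. UNC without 3C separated 1 member, Cxcl5, upward and 0 downward (8.47% and 6.69% of all genes). With 3C, 5 members were separated upward and 1 downward without UNC (29.2% and 28.4% of all genes), and 5 upward and 0 downward with UNC (27.5% and 26.9%).

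Of the 15 genes listed as receptors of these ligands, 8 were tested, among them Osmr, whose ligand oncostatin M is not a member. With UNC on 3C, 4 rose and 1 fell, where 11.6% of all genes were called, and the median was 0.39 against -0.00 for all genes. Osmr, a gp130 partner that binds oncostatin M, rose from 1708 ± 156 to 2560.5 ± 173 normalised counts (0.59 ± 0.10, limma adjusted p = 0.00109). Ackr3, a scavenging receptor of CXCL12, rose from 216 ± 35.9 to 326 ± 24.6 (0.60 ± 0.13, adjusted p = 0.00444), and Cxcr4, its signalling receptor, fell from 52.3 ± 4.06 to 33.2 ± 5.51 (-0.65 ± 0.14, adjusted p = 0.00513). With 3C alone 4 rose and 1 fell, not far from the 49.4% of all genes called, the latter again Cxcr4, from 295 ± 30.6 to 52.3 ± 4.06 (-2.47 ± 0.14, adjusted p = 9.65e-11). The receptor of LIF, Lifr, rose from 593 ± 46.9 to 1659 ± 378 (1.46 ± 0.11) and the IL-6 receptor Il6ra from 352 ± 40.6 to 768 ± 37.2 (1.13 ± 0.09, adjusted p = 1.57e-08). In the presence of UNC, 5 receptors rose with 3C and 1 fell (47.4% of all genes were called), with Lifr at 1.66 ± 0.11, Ackr3 at 1.66 ± 0.13 and Cxcr4 at -2.78 ± 0.14. UNC on DOX alone gave 0 calls with limma (1 of 8 at an unadjusted p below 0.05) and 0 with edgeR and DESeq2.

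Among 39 other cytokine and chemokine genes, 19 were tested, and with UNC on 3C 8 rose and 0 fell, where 7.71% and 3.94% of all genes did, with a median of 0.54 against -0.00 for all genes. Il1rn, which encodes the interleukin-1 receptor antagonist, rose from 1941 ± 418 to 4842 ± 737 (1.33 ± 0.18, limma adjusted p = 0.000123). Clcf1, a gp130 family ligand, rose from 184 ± 30.0 to 269 ± 39.6 (0.54 ± 0.14, adjusted p = 0.0184), and Cxcl3, a relative of Cxcl1, rose from 7.95 ± 2.55 to 23.8 ± 5.30 (1.48 ± 0.40, adjusted p = 0.023). Without the libraries with 3C, Cxcl3, Tslp and Il15 would not have passed the filter, and without those lacking 3C, Ccl20 and Il15 would not. Cxcl3 reached 10 in 4 libraries, all with 3C, and its mean in DOX_3C was below 10. It thus passed only with the help of DOX_3C_UNC, the higher group here. Its place among the tested genes is therefore no support for its difference, or for its part in the count of 8. The count of 8 was 2 without DOX_3C replicate 1 or 2 or DOX_3C_UNC replicate 1, 5 without DOX_3C replicate 3, 1 without DOX_3C_UNC replicate 3 and 3 without replicate 2 of every group. With 3C alone 5 rose and 5 fell, near the 49.4% of all genes called: the alarmin gene Il33 went from 18.7 ± 10.9 to 194 ± 26.5 (3.51 ± 0.33), and Cxcl16, the ligand of CXCR6, from 184 ± 32.6 to 14.9 ± 1.90 (-3.53 ± 0.19, adjusted p = 6.95e-11). With 3C in the presence of UNC 7 rose and 3 fell (47.4% of all genes were called), with Il1rn at 2.35 ± 0.18, Il33 at 3.46 ± 0.33 and Cxcl16 at -2.97 ± 0.19. With UNC on DOX alone, 0 were called by limma, edgeR or DESeq2, and 0 of 19 had an unadjusted p below 0.05, while 1 was called with the replicate number as a block.

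The 22 genes of NF-kB subunits, kinases and feedback inhibitors were all tested. With 3C alone 5 rose and 9 fell, and with 3C in the presence of UNC 5 rose and 7 fell, where 49.4% and 47.4% of all genes were called, and Traf1 passed the filter through libraries without 3C alone. The median was -0.11 and 0.02, against 0.02 and 0.01 for all genes. Nfkbia, the inhibitor IkB-alpha, rose by 0.88 ± 0.06 and 1.03 ± 0.06 in these comparisons, while Tnip1, an inhibitor of NF-kB signalling, fell by 1.21 ± 0.09 and 0.94 ± 0.09. The ubiquitin-editing enzyme gene Tnfaip3 (A20) fell from 243 ± 26.6 to 93.5 ± 10.7 with 3C alone (-1.37 ± 0.12), and Bcl3, a nuclear IkB protein, rose with 3C in the presence of UNC from 84.3 ± 14.2 to 399 ± 29.0 (2.24 ± 0.15, adjusted p = 1.33e-09). With UNC on 3C, near the 11.6% of all genes called, 2 rose, Tnip1 (0.33 ± 0.09) and Bcl3 (0.49 ± 0.15, adjusted p = 0.0439), and with UNC on DOX alone 0 were called by limma, edgeR or DESeq2 (0 of 22 at an unadjusted p below 0.05). The count with UNC on 3C was 5 with the replicate number as a block, 1 without DOX replicate 1, DOX_3C replicate 1 or replicate 2 of every group, and 0 without DOX_3C replicate 2 or DOX_3C_UNC replicate 1 or 3. Of the genes named, Nfkbia, Tnip1 and Tnfaip3 encode inhibitors of NF-kB signalling.

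Of 14 genes of gp130, JAK and STAT signalling, all tested, 5 rose and 6 fell with 3C alone, 6 rose and 5 fell with 3C in the presence of UNC, and 5 rose and 0 fell with UNC on 3C, where 49.4%, 47.4% and 11.6% of all genes were called. Their medians were -0.08, 0.06 and 0.18, against 0.02, 0.01 and -0.00 for all genes. Socs3, the feedback inhibitor of gp130 signalling and a STAT3 target, went from 1077 ± 128 in DOX to 3277 ± 312 in DOX_3C (1.61 ± 0.08, limma adjusted p = 1.74e-11) and to 4431 ± 119 in DOX_3C_UNC, a rise over DOX_3C of 0.44 ± 0.08 (adjusted p = 0.00143). The kinase gene Jak2 rose by 0.72 ± 0.06 and the transcription factor gene Stat5a by 1.58 ± 0.16 with 3C alone, and by 0.90 ± 0.06 and 2.20 ± 0.16 in the presence of UNC. With UNC on 3C, Jak1 rose by 0.23 ± 0.05 (limma adjusted p = 0.00491). The count of 5 was 3 without DOX_3C replicate 2 or DOX_3C_UNC replicate 1. UNC on DOX alone gave 0 calls with limma, edgeR and DESeq2, and 4 of 14 at an unadjusted p below 0.05. For the interaction, limma called 0 genes of each of these lists, and 2 of 8 receptors, 6 of 19 other cytokines, 2 of 22 NF-kB genes, 4 of 14 gp130 pathway genes and 1 of 11 stress-response genes had an unadjusted p below 0.05. With the replicate number as a block, 2 receptors and 1 gene of each of the other 4 lists were called for the interaction.

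Markers of fibroblasts moved with several of these comparisons. The summed level of the 10 fibroblast markers was 217314 to 230679 normalised counts over the DOX libraries, 248963 to 267197 in DOX_UNC, 129319 to 144233 in DOX_3C and 171111 to 187617 in DOX_3C_UNC. With UNC on 3C 8 of 10 rose (median 0.72), where 7.71% of all genes did, and with 3C alone 5 of 10 fell, where 24.7% did. With 3C in the presence of UNC 4 rose and 4 fell, where 23.9% and 23.5% of all genes did. With UNC on DOX alone limma called 0, where 0.607% of all genes were called. Cxcl5, Ccl2 and Csf1 were thus higher with UNC on 3C together with 8 of the 10 fibroblast markers. Il6, Gdf15, Cxcl5, Csf1 and Lif rose with 3C alone, where 5 of the 10 fibroblast markers were called lower. Col1a2 went from 82491 ± 5978 in DOX to 23912 ± 2060 in DOX_3C. Pdgfrb, Pdgfra and Lum were at means of 767, 240 and 14.5 in DOX and 769, 227 and 14.8 in DOX_3C. The 15 markers of macrophages and other blood cells summed to 789.6 to 1273 in DOX, 702 to 1118 in DOX_UNC, 217 to 601 in DOX_3C and 241 to 638 in DOX_3C_UNC. This lower sum with 3C rested on Laptm5: without it, a choice made after its values were seen, the sums were 142 to 543 in DOX, 137 to 514 in DOX_UNC, 187 to 554 in DOX_3C and 222.5 to 590.3 in DOX_3C_UNC, and the groups overlapped. Of their 13 tested genes UNC gave 0 calls in limma in either setting, where 0.607% (without 3C) and 11.6% (with 3C) of all genes were called. With 3C, Laptm5 was called lower in both settings (-4.12 ± 0.25 without UNC) and Cd68 higher in the presence of UNC (0.70 ± 0.20, limma adjusted p = 0.00719). For 3C, 49.4% (without UNC) and 47.4% (with UNC) of all genes were called. No marker of that list was at 0 in all libraries of a group. Of 6 endothelial markers 2 were tested, Tek and Cdh5, and Tek fell with 3C by 0.60 ± 0.09 without UNC and by 0.78 ± 0.09 with it. Tek stood at group means of 1595 to 2711, while Pecam1 was at 0.653 to 3.08, Kdr at 3.72 to 5.87 and Emcn at 0 to 1.14. Whether Tek reads came from endothelial cells was not tested. Cdh5, at group means of 10.4 and 12.7 without 3C and 1.19 and 0.737 with it, passed the filter through libraries without 3C alone, so its place among the tested genes is no support for its difference. UNC gave 0 calls in this list with limma, where 0.607% (without 3C) and 11.6% (with 3C) of all genes were called. Reads of Pou5f1 and Sox2 can include the transgenes. Pou5f1 fell with UNC on 3C from 2484 ± 86.5 to 1724 ± 123 (-0.53 ± 0.05, adjusted p = 7.46e-06) and with 3C alone by 0.51 ± 0.05. With 3C in the presence of UNC its difference was -0.98 ± 0.05. Its interaction of UNC and 3C was also called by limma (-0.47 ± 0.08, adjusted p = 0.023), among the 10 genes called, and that of Sox2 (-0.30) was not. Sox2 fell with UNC on 3C by 0.39 ± 0.07 (adjusted p = 0.00132) and with 3C alone by 0.64 ± 0.07. In these bulk samples fewer fibroblasts and less RNA per fibroblast cannot be told apart, and the part of these markers' cells, and of the reprogramming factors' level, in the members' values was not tested.

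Over the 12 reprogramming libraries, the profiles of Il6 and Gdf15 had a Pearson r of 0.946 on the log2(value + 1) scale, those of Cxcl5 and Csf1 0.938 and those of Il6 and Cxcl5 0.915. The lowest value between members was -0.653, for Lif and Cxcl12. Among all other tested genes, the profiles most like Il6 were those of Naaladl2 (r = 0.986), Draxin (0.985) and Cyp1b1 (0.984). For Gdf15 they were Itprid2 (0.993), Slc5a6 (0.993) and Gm5835 (0.988), for Cxcl5 Mvp (0.987), Ccn5 (0.986) and Aebp1 (0.985), and for Csf1 Osmr (0.966), Il1rl1 (0.962) and Ltbp1 (0.960). Osmr and Il1rl1 encode receptors of oncostatin M and interleukin-33. For Cxcl12 they were Tns2 (0.958), Cpe (0.921) and Stx2 (0.894), for Ccl2 Cd276 (0.925), Crispld2 (0.921) and Gm29787 (0.921), and for Ccl7 Ispd (0.919), Rhbdd1 (0.918) and Gm13835 (0.894). For Lif they were E130309D02Rik (0.972), Glud-ps (0.956) and Itpa (0.947), and for Cxcl1, whose best values were the lowest, Slx4 (0.863), Sirt4 (0.854) and Tmem39a (0.828). These are descriptions over 12 libraries that share treatments and library depth, and the 3 named per gene are the highest of all genes tested.

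In iPSC, UNC during the first 48 hours went with higher Cxcl12 and Csf1. There, 9 members were tested, 2 rose and 0 fell with edgeR (quasi-likelihood), where 1.31% of 17987 genes were called, 1.27% higher and 0.0389% lower, and the members' median log2 fold change was 0.84 against -0.01. The groups did not overlap, with all UNC libraries higher, for 4 of the 9 tested members, and with all lower for 0, where this held for 8.95% and 10.3% of all genes. Several members had few reads in iPSC, so that a median over members weighs genes of low depth.

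Csf1 had 67.5, 75.3 and 50.3 CPM after DMSO and 118, 125 and 117 after UNC. The lowest UNC library was above the highest DMSO library, and Csf1 rose by 0.91 ± 0.12 (edgeR adjusted p = 0.00363). Cxcl12 had 17.6, 18.1 and 16.2 CPM after DMSO and 29.2, 30.3 and 24.3 after UNC, again without overlap, and rose by 0.70 ± 0.10 (adjusted p = 0.00509). Both calls held when any 1 of the 6 libraries was left out.

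The CC chemokines were higher in every UNC library but not called. Ccl2 had 0.798, 1.38 and 0.333 CPM after DMSO and 1.46, 2.15 and 1.67 after UNC (1.07 ± 0.39, edgeR adjusted p = 0.306). Ccl7 had 0.714, 2.01 and 1.08 after DMSO and 2.27, 2.43 and 2.13 after UNC (0.84 ± 0.31, adjusted p = 0.31). Il6 had 6, 12 and 6 reads after DMSO and 28, 27 and 10 after UNC (1.47 ± 0.44, adjusted p = 0.197), with overlapping groups, and Cxcl1 had 6, 14 and 5 against 12, 20 and 14 reads (0.93 ± 0.43, adjusted p = 0.416).

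Lif was at 13.3, 12.9 and 14.1 CPM after DMSO and 13.5, 14.2 and 15.4 after UNC (0.11 ± 0.09, edgeR adjusted p = 0.676). Gdf15 was at 9.71, 9.80 and 10.5 against 10.8, 8.48 and 10.1 CPM (-0.02 ± 0.12, adjusted p = 0.955), and Il11 at 1.05, 0.945 and 1.00 against 0.447, 1.10 and 0.741 CPM (-0.38 ± 0.34, adjusted p = 0.692). For these 3 genes the groups overlapped. Cxcl5, which was called in the 4 pairwise reprogramming comparisons, had 5, 2 and 0 reads after DMSO and 6, 11 and 5 after UNC, and did not pass the filter. Its change in iPSC was therefore not tested.

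**Figure D4:**
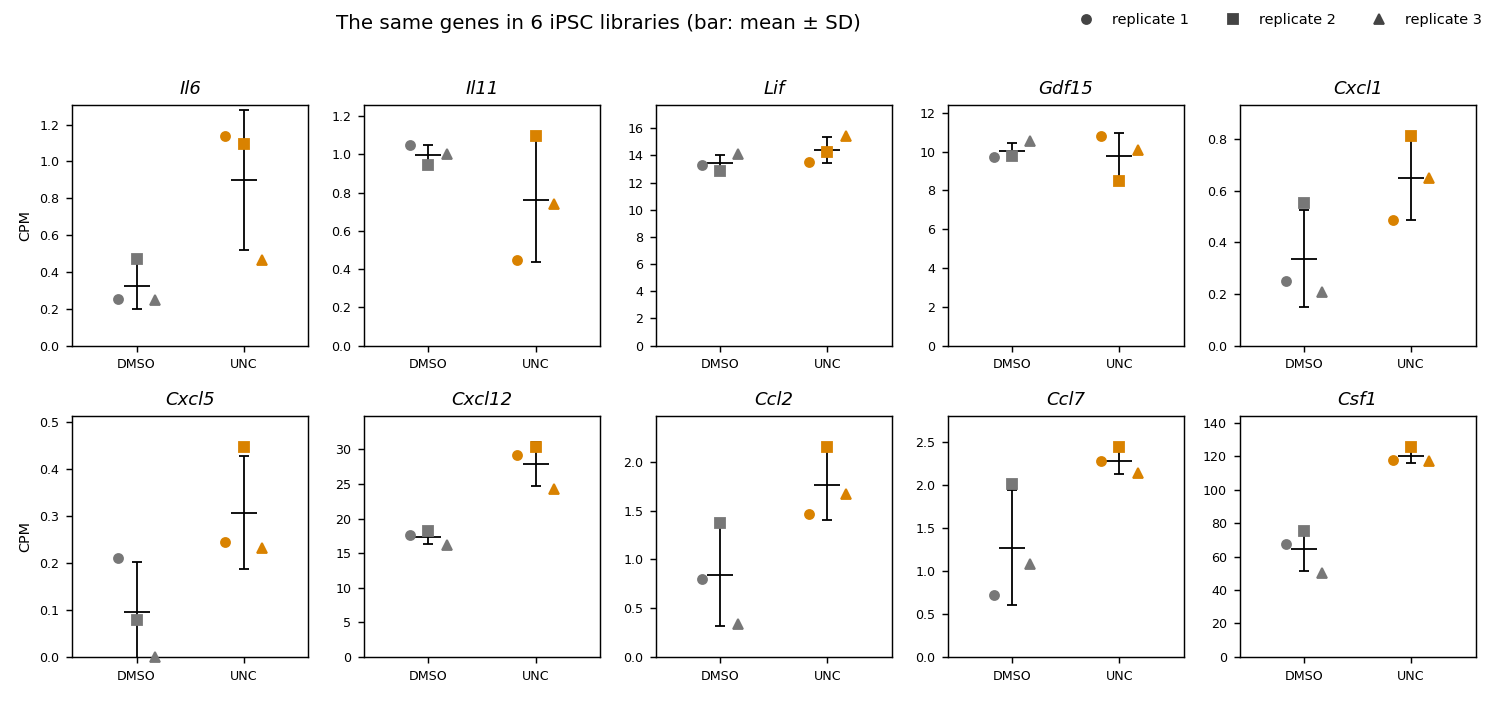
CPM (linear vertical axes, 1 panel per gene) in the 3 DMSO and 3 UNC iPSC libraries, with replicates as circle, square and triangle and the mean ± SD as bars. Cxcl12, Ccl2, Ccl7 and Csf1 have all UNC libraries above all DMSO libraries. So does Cxcl5, which held 0 to 11 reads per library and was not tested. Il6, Il11, Lif, Gdf15 and Cxcl1 overlap.

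In the lists of related genes in iPSC, of 17 tested other cytokines 2 rose, Cxcl14 from 15.3 ± 1.09 to 23.4 ± 0.819 CPM (0.62 ± 0.08, edgeR adjusted p = 0.00485) and Cx3cl1 from 7.37 ± 0.739 to 11.3 ± 1.42 CPM (0.63 ± 0.13, adjusted p = 0.0381), a count of 1 without DMSO replicate 1 or 3 or UNC replicate 1 or 2. edgeR called 0 of 8 receptors, 0 of 22 NF-kB genes, 0 of 14 gp130 pathway genes and 0 of 11 stress-response genes, with 1, 3, 3 and 3 at an unadjusted p below 0.05, and DESeq2 called 1 receptor and 0 of the other 3 lists. Without DMSO replicate 2 edgeR called 1 receptor too. Fibroblast markers moved with UNC here too: 7 of 9 tested rose (median 0.60), where 1.27% of all genes did, Col1a1 from 725 ± 76.8 to 1170.0 ± 8.48 CPM (0.70 ± 0.07, edgeR adjusted p = 0.00216). The sum of the markers was 5865 to 6433 CPM after DMSO and 8095 to 9471 after UNC. Most of that sum was Fn1, at 4260 ± 119 CPM after DMSO and 5703 ± 760 after UNC, while Dcn, Lum and Pdgfra had group means of 0.0829 to 1.72 CPM. The part of fibroblast RNA in the Cxcl12 and Csf1 values was not tested. Blood cell markers summed to 114 to 127 CPM after DMSO and 114 to 120.1 after UNC, and pluripotency markers to 5106 to 5304 and 4691 to 5141 CPM.

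The 2 tables were counted separately, so levels across them are set side by side without a test. On the CPM scale, Ccl2 was at 28.6 to 50.4 over the 12 reprogramming libraries and at 0.333 to 2.15 over the 6 iPSC libraries, and Ccl7 was at 48.5 to 76.7 and 0.714 to 2.43. Csf1 was at 169 to 302 and 50.3 to 125, and Cxcl5 at 13.4 to 70.4 and 0 to 0.446. Lif was higher in iPSC, at 12.9 to 15.4 against 5.30 to 10.4, and Il11 reached 1.10 in iPSC against 0.632 at most in reprogramming.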

How the data were processed

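RNA-seq values of 12 reprogramming and 6 iPSC libraries were used. The submitters' processing notes name mm10, HTSeq 0.5.4p3, TopHat2 2.1.0, DESeq and SAMtools 1.8. Whether the labelled stranded kit was also counted by strand is not given in the sources used here. In the deposited reprogramming table the values are signal: the authors divided the counts of each library by 1 factor. Whole reads were recovered for 100% of values (tolerance 0.01 read). The deposited iPSC table holds raw counts. Another 2 columns of the first file could be tied to none of the samples and were left out. For the iPSC, column numbers were looked up in the sample descriptions.

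Log2(value + 1) of genes reaching 10 in at least 3 libraries was tested with limma 3.58.1 in R 4.3.3 (1 fit of all 12 libraries, empirical Bayes with trend), where the planned design had named edgeR for raw counts. For the iPSC counts the test was that of edgeR 4.0.16 by quasi-likelihood, with TMM and its default filter; its standard errors were taken from its F statistic. P-values were adjusted by Benjamini-Hochberg over all genes of a comparison. Both steps were tested on simulated counts, with changes put only into genes with many reads. The simulated spread was fixed and held no effect of the replicate number. Genes with few reads and libraries that share a number were thus not covered by that test. Members and gene lists were chosen with earlier results of these data known. All members are named, with at most 3 called genes of each list per comparison (smallest adjusted p) and the 3 genes with the highest r for each tested member.

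The replicate numbers come from the titles. Deviations from the group means of same-numbered libraries correlated at 0.110 to 0.191 for UNC with 3C, 0.106 to 0.156 for 3C without UNC and 0.155 to 0.205 for 3C with UNC, so the numbers were taken to pair these libraries, which ties all 4 reprogramming groups by number. For UNC without 3C the range was 0.094 to 0.223, and over all 18 same-numbered pairs 0.0595 to 0.223, with every library most like its own number. The main limma fit did not use these numbers, and the block was run as an alternative to it. In iPSC the numbers were not taken to pair the samples. Replicates differed by more than counting error, with a chi-square per degree of freedom of 3.14 to 11.0 over 18 pairs. Intervals of read ratios cover counting error alone. Alternatives were pseudocounts of 0.5 and 4, no filter, edgeR and DESeq2 1.42.0 on the recovered reads, other size factors, the replicate block and leaving out each library.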

Additional observations from a re-analysis of the deposited data

How the results depend on the processing

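Of 594 log2 fold changes of members with 1 library left out, 563 kept their direction and their side of the threshold, 2 lost a call, 9 gained one and 20 changed sign, and of 396 under the other settings 358 did so. Counts of members called ranged, with 1 library left out, from 1 to 2 for UNC without 3C, 3 to 4 for UNC with 3C, 5 to 7 for 3C without UNC, and 4 to 5 for 3C with UNC, and stayed at 0 for the interaction and 2 in iPSC. With the replicate block they were 5 for UNC with 3C (6 in edgeR), 7 for 3C with UNC (7 in edgeR, and 7 without replicate 2 of every group) and 2 for the interaction (2 in edgeR, 2 with DESeq2 without a block), and in iPSC 5 members were called with no filter on low counts. None of the differences that changed sign was called in the full set of libraries. Their ranges with 1 library left out were -0.17 to 0.80 for Il6, -0.24 to 0.030 for Lif, -0.068 to 0.081 for Ccl2 and -0.12 to 0.18 for Ccl7 (UNC without 3C), -0.032 to 0.12 for Gdf15 and -0.13 to 0.79 for Cxcl1 (UNC with 3C), -0.039 to 0.12 for Ccl7 (3C without UNC), -0.16 to 0.76 for Cxcl1 and -0.071 to 0.047 for Ccl2 (3C with UNC), -0.22 to 0.053 for Lif and -0.20 to 0.62 for Cxcl12 (interaction) and -0.10 to 0.076 for Gdf15 in iPSC. Ccl2 with 3C and UNC was -0.0013 in edgeR, -0.0055 in edgeR with the replicate block and -0.036 without replicate 2 of every group, where Ccl2 and Ccl7 for UNC without 3C were 0.046 and -0.038. In iPSC (r 0.049 to 0.109, with 4 of 6 libraries most like their own number) the samples share only a number. With the block 3 members were called for UNC without 3C (2 in edgeR). All genes called numbered 98 for UNC without 3C (94 with edgeR, 168 with DESeq2, 409 with the block, 19 to 144 with 1 library left out), 1880 for UNC with 3C (1039 to 1917, 2081 with edgeR), 10 for the interaction (0 to 70, 17 with edgeR, 160 with DESeq2, 413 with the block) and 236 in iPSC (85 to 216, 370 with DESeq2, 823 with no filter, 407 with the block). The cause of these changes was not tested. The replicate block changed no call of a member other than those given here and beside the results. Depth limits Il11 in reprogramming and Il6, Cxcl1, Cxcl5, Ccl2 and Ccl7 in iPSC, where counts were low.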
